A study of Canis lupus familiaris with 51 samples.

Results

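Canine cutaneous mast cell tumors (MCTs) of 2 breeds were compared: 7 differentiated MCTs of dogs with the breed label boxer and 7 differentiated MCTs of dogs labeled labrador retriever, 14 of the 51 tumors of the series. The breed, sex and age came from the sample labels, and the class (differentiated or undifferentiated) came from the published study, because the labels do not give it. The study had fixed the class of 5 of the 14 by histology, as reference samples (4 boxers and 1 Labrador), and predicted that of the other 9 from their expression. The boxer tumors were T12, T47, T84, T87, T88, T112 and T130, from 6 females and 1 male aged 3 to 11 years. The Labrador tumors were T58, T83, T91, T101, T102, T106 and T107, from 5 females and 2 males aged 6 to 10 years. Another 24 differentiated tumors came from dogs of other or mixed breed, of both sexes and aged 4 to 13 years where given. Their breed labels were crossbred, Golden Retriever, Dogo Argentino, Dachshund and others. Undifferentiated tumors came from 2 male boxers aged 8 and 6 years. They also came from 2 Labradors, a female aged 9 years and a male aged 6 years. All tumors were spontaneous and were sampled from the center of the mass at surgery, and the series holds 1 single-color Agilent canine array of each. The study hybridized 4 of its samples, which it does not name, a second time as technical replicates. The samples of the series are bulk tumor tissue, and the labels do not say whether 2 tumors can come from the same dog. The study itself counts 51 dogs for the 51 tumors on arrays. T87 and T88 share breed, sex, age and slide, and so do T106 and T107, so that the probe counts and the differences of the named probes and genes were also computed with 1 tumor of each pair left out and with each pair averaged.

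Mast cells are tissue-resident immune cells that depend on the receptor tyrosine kinase KIT and release histamine, proteases and eicosanoids. Cutaneous MCT is a common skin tumor of the dog, and both boxers and Labrador retrievers are among the breeds in which it is often diagnosed. Each breed descends from few founders, so that dogs of 1 breed share long stretches of the genome and with them alleles that set coat color, body form and transcript levels.

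On the 14 arrays, 60.6% to 73.2% of the spots were well above background, and 901 to 3291 of 43803 spots per array were marked as outliers by the scanner software and set to missing. Spots well above background made up 68.4% ± 4.00 (SD, n = 7) in boxers and 67.7% ± 3.44 (SD, n = 7) in Labradors, and the difference of 0.72 percentage points did not pass a two-sided exact permutation test (p = 0.702). Age was 7.29 ± 2.81 years (SD, n = 7) in boxers and 8.14 ± 1.57 years (SD, n = 7) in Labradors (two-sided exact permutation test, p = 0.571). The breeds were not balanced over the technical groups. The 14 arrays lay on 9 slides scanned in 6 sessions, and only 1 slide and 2 sessions held both breeds.

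The tissue label was checked against 15 mast cell genes measured with a probe, of which 14 were well above background on all 14 arrays. The mean log2 intensity of CMA1, the mast cell chymase, was 16.71 ± 0.49 (SD, n = 4) in boxers and 17.05 ± 0.57 (SD, n = 5) in Labradors, over the arrays with a usable spot. That of MS4A2, the beta chain of the IgE receptor, was 15.59 ± 0.76 (SD, n = 5) and 15.84 ± 0.44 (SD, n = 7). KIT ranged from 12.58 to 14.55 in boxers and from 12.98 to 13.85 in Labradors. The exception was CTSG, a neutrophil and mast cell protease, which was well above background on 5 boxer and 3 Labrador arrays.

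The array carries 60-base probes, and the sequences of those on which the comparison turned are given here as deposited, 5′ to 3′, with no base marked. The positions are those of the array annotation, whose dog genome build is not named. The first set holds probes with small p in each direction, among them those of the named genes LYPLA1 and NEIL1:
A_11_P083221, chr9:53107840-53107899, minus strand: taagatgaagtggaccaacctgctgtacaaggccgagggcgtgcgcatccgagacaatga
LYPLA1, chr29:8681718-8683906, plus strand, spliced: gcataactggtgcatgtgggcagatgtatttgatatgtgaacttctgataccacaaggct
CF408231, chr28:28137830-28137889, minus strand: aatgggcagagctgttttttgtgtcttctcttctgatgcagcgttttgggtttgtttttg
NEIL1, chr30:41215251-41215310, plus strand: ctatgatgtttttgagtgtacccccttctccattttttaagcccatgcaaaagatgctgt
TC53571, chr22:51560509-51560568, minus strand: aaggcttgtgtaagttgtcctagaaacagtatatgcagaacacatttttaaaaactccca
CX990026, chr35:27329220-27329279, minus strand: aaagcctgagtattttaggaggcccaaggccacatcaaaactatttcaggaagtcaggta
TC48615, chr2:37613894-37613953, minus strand: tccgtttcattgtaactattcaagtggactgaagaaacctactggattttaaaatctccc

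The second set holds a called probe near background in 6 of 7 boxers, 2 called probes that are neighbors on chromosome 5, and a called probe beside MCCC2:
TC58556, chr9:13461866-13461925, minus strand: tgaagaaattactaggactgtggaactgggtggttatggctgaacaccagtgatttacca
LOC480493, chr5:81403845-81403904, minus strand: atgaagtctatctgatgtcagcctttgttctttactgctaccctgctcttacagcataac
DN379522, chr5:81161479-81161538, minus strand: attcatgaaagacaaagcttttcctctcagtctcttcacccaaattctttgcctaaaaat
TC73426, chr2:57698031-57698090, plus strand: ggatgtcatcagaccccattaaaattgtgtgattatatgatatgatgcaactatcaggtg
The GC content of the called probes ranged from 35.0% to 55% with a median of 41.7%, beside a median of 43.3% over all probes tested.

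Few probes passed the test between the 2 breeds, among them those of the lysophospholipase LYPLA1 and the DNA glycosylase NEIL1. Of 43552 probes tested with limma and Benjamini-Hochberg adjustment, 16 (0.0367%) met both limits of a call, a minimum fold of 2 and an adjusted p below 0.01, with 8 (0.0184%) higher and 8 (0.0184%) lower in boxers. At an adjusted p under 0.05 and any fold, 33 probes (0.0758%) passed, 15 higher and 18 lower in boxers, and 9 of them carry a gene symbol. An unadjusted p under 0.05 was reached by 2948 probes. The median absolute log2 difference was 1.42 over the 33 probes, chosen without a fold limit, and 0.16 over all probes. The ranges of the 2 breeds did not overlap for any of the 16, nor for 31 of the 33. These probes were chosen by p on the same values, so that the lack of overlap is no separate evidence. Of the 32410 probes with a value on all 14 arrays, 66 (0.204%) had ranges that did not overlap. Some of the 16, such as A_11_P083221, lack a value on an array and are not among the 32410. Leaving out 1 tumor of each pair sharing labels and slide left 9 to 10 probes called, 9 of which were among the 16 in each case. Averaging each pair left 9 called, and all 16 stayed past an adjusted p of 0.05. With 1 tumor of each pair left out, 14 to 16 of the 16 stayed past it.

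**Figure D1:**
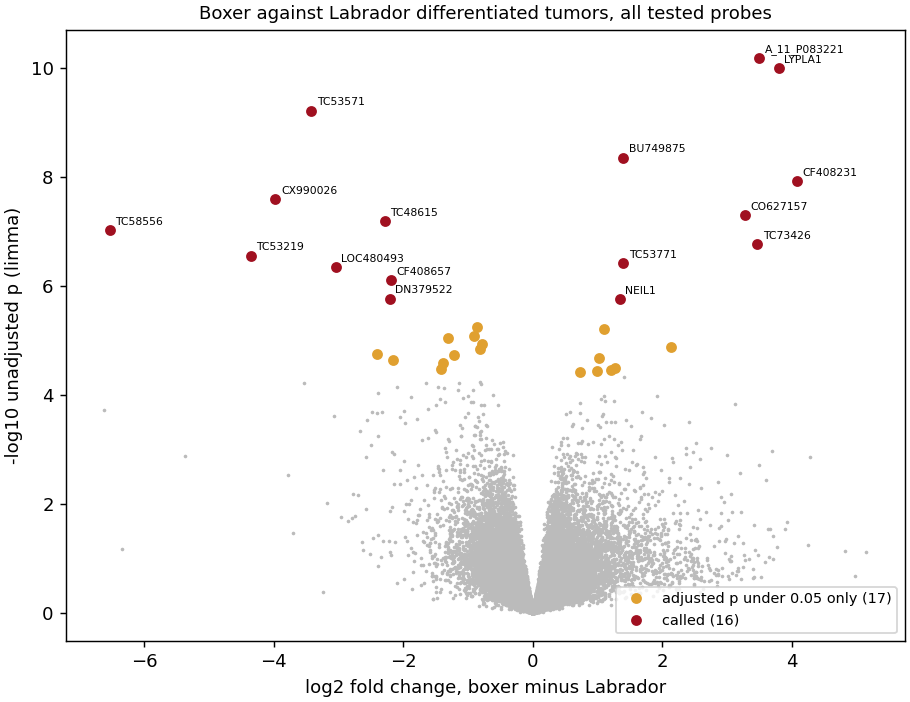
Each point is 1 of 43552 probes, with the log2 fold change (boxer minus Labrador, n = 7 each) on the x axis and -log10 of the unadjusted limma p on the y axis. The 16 called probes (red) lie above the bulk of the probes, 8 on either side, and 17 more (yellow) passed an adjusted p of 0.05 only.

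Among the probes higher in boxers, 2 of the 8 called ones carry a gene symbol. LYPLA1 encodes a lysophospholipase that removes fatty acid groups from proteins. Its log2 intensity was 5.02, 5.96 and 6.53 (lowest, median and highest) in boxers and 1.86, 2.0 and 2.19 in Labradors. All 7 boxers lay above all 7 Labradors, and the probe was well above background on 6 boxer arrays and on no Labrador array. The level in boxers (mean 5.82 ± 0.57, SD, n = 7) was therefore at least 3.42-fold higher, taking each Labrador array at its lowest signal well above background (measured mean 2.02 ± 0.13, SD, n = 7; limma adjusted p = 2.15e-06). NEIL1, a DNA glycosylase that starts base excision repair of oxidized bases, was bright in both breeds. It lay at 9.33, 9.80 and 10.24 in boxers and at 7.87, 8.47 and 8.77 in Labradors, again without overlap. Its log2 fold change was 1.34 ± 0.17 (SE; limma adjusted p = 0.00469).

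The other 6 called probes higher in boxers have no gene symbol. A_11_P083221 had the smallest p of all probes. Its values were 8.03, 8.45 and 9.02 in boxers and 4.73, 5.01 and 5.47 in the 6 Labradors with a usable spot (the spot of T91 was an outlier). The log2 fold change was 3.49 ± 0.17 (SE; limma adjusted p = 2.15e-06). CF408231, an expressed sequence tag from a heart library, lay at 7.51, 8.46 and 9.50 in boxers and at 3.50, 4.20 and 5.51 in Labradors, where 3 of 7 arrays were well above background. It differed by 4.08 ± 0.34 (SE; limma adjusted p = 0.000103).

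BU749875, from the same heart library, was dim. It measured 3.14 to 3.69 in boxers and 1.87 to 2.16 in Labradors, and 1 boxer array and no Labrador array were well above background. No fold is given for it. CO627157, from an ovary library, lay at 5.50, 5.67 and 6.81 in boxers and at 2.0, 2.18 and 3.97 in Labradors, where no array was well above background, so that boxers were at least 3.31-fold higher (measured means 5.82 ± 0.45 and 2.54 ± 0.71, SD, n = 7 each; limma adjusted p = 0.00031). TC73426 lay at 9.38, 9.69 and 10.13 in boxers. In Labradors it lay at 5.65, 5.95 and 8.39, the highest being T102, and the log2 fold change was 3.47 ± 0.36 (SE). TC53771 showed a smaller difference of 1.40 ± 0.15 (SE), from 9.59 to 10.44 in boxers and from 8.16 to 8.82 in 6 Labradors.

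Of the 8 probes called lower in boxers, none carries a gene symbol, though LOC480493 carries a gene identifier. TC53571 lay at 5.74, 5.89 and 6.24 in 6 boxers (the spot of T130 was an outlier) and at 8.99, 9.15 and 10.29 in Labradors, a log2 fold change of -3.42 ± 0.20 (SE; limma adjusted p = 8.74e-06). CX990026, from a testis library, lay at 3.84, 4.63 and 6.01 in 6 boxers (the spot of T12 was an outlier) and at 8.45, 8.80 and 9.04 in Labradors. It differed by -3.97 ± 0.33 (SE; limma adjusted p = 0.000184). TC48615 was bright in both breeds, at 7.48, 7.71 and 8.27 in boxers and 9.31, 10.23 and 10.56 in Labradors, and differed by -2.28 ± 0.22 (SE; limma adjusted p = 0.000353).

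TC58556 was near background in most boxers and bright in Labradors. In boxers it lay at 1.84, 2.04 and 6.70, the highest being T130, which was the only boxer array well above background. In Labradors it lay at 8.89, 9.55 and 10.05. The difference of measured means was -6.53 ± 0.64 (SE; limma adjusted p = 0.000457), against a boxer mean that rests on background values in 6 of 7 arrays. TC53219 lay at 2.64 to 4.21 in 6 boxers, with 1 array well above background, and at 5.64 to 8.65 in Labradors. It differed by -4.36 ± 0.44 (SE). CF408657 lay at 5.04 to 6.37 in boxers and 7.31 to 8.31 in Labradors, a difference of -2.19 ± 0.26 (SE).

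LOC480493 and DN379522 are 242.4 kb apart on chromosome 5, and the array has no other probe with a position between them. LOC480493 lay at 4.20, 5.51 and 6.45 in boxers and at 7.67, 8.17 and 8.74 in Labradors (-3.04 ± 0.34, SE). DN379522 lay at 3.43, 4.16 and 5.56 in boxers and at 5.71, 6.53 and 6.86 in Labradors (-2.20 ± 0.28, SE). Both were thus lower in all boxers than in all Labradors. The other called probes with a position were spread over further chromosomes, 11 in all, and the next closest called pair on 1 chromosome, A_11_P083221 and TC53771, was 2280 kb apart with 146 probes between them, none of which passed an adjusted p of 0.05.

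**Figure D2:**
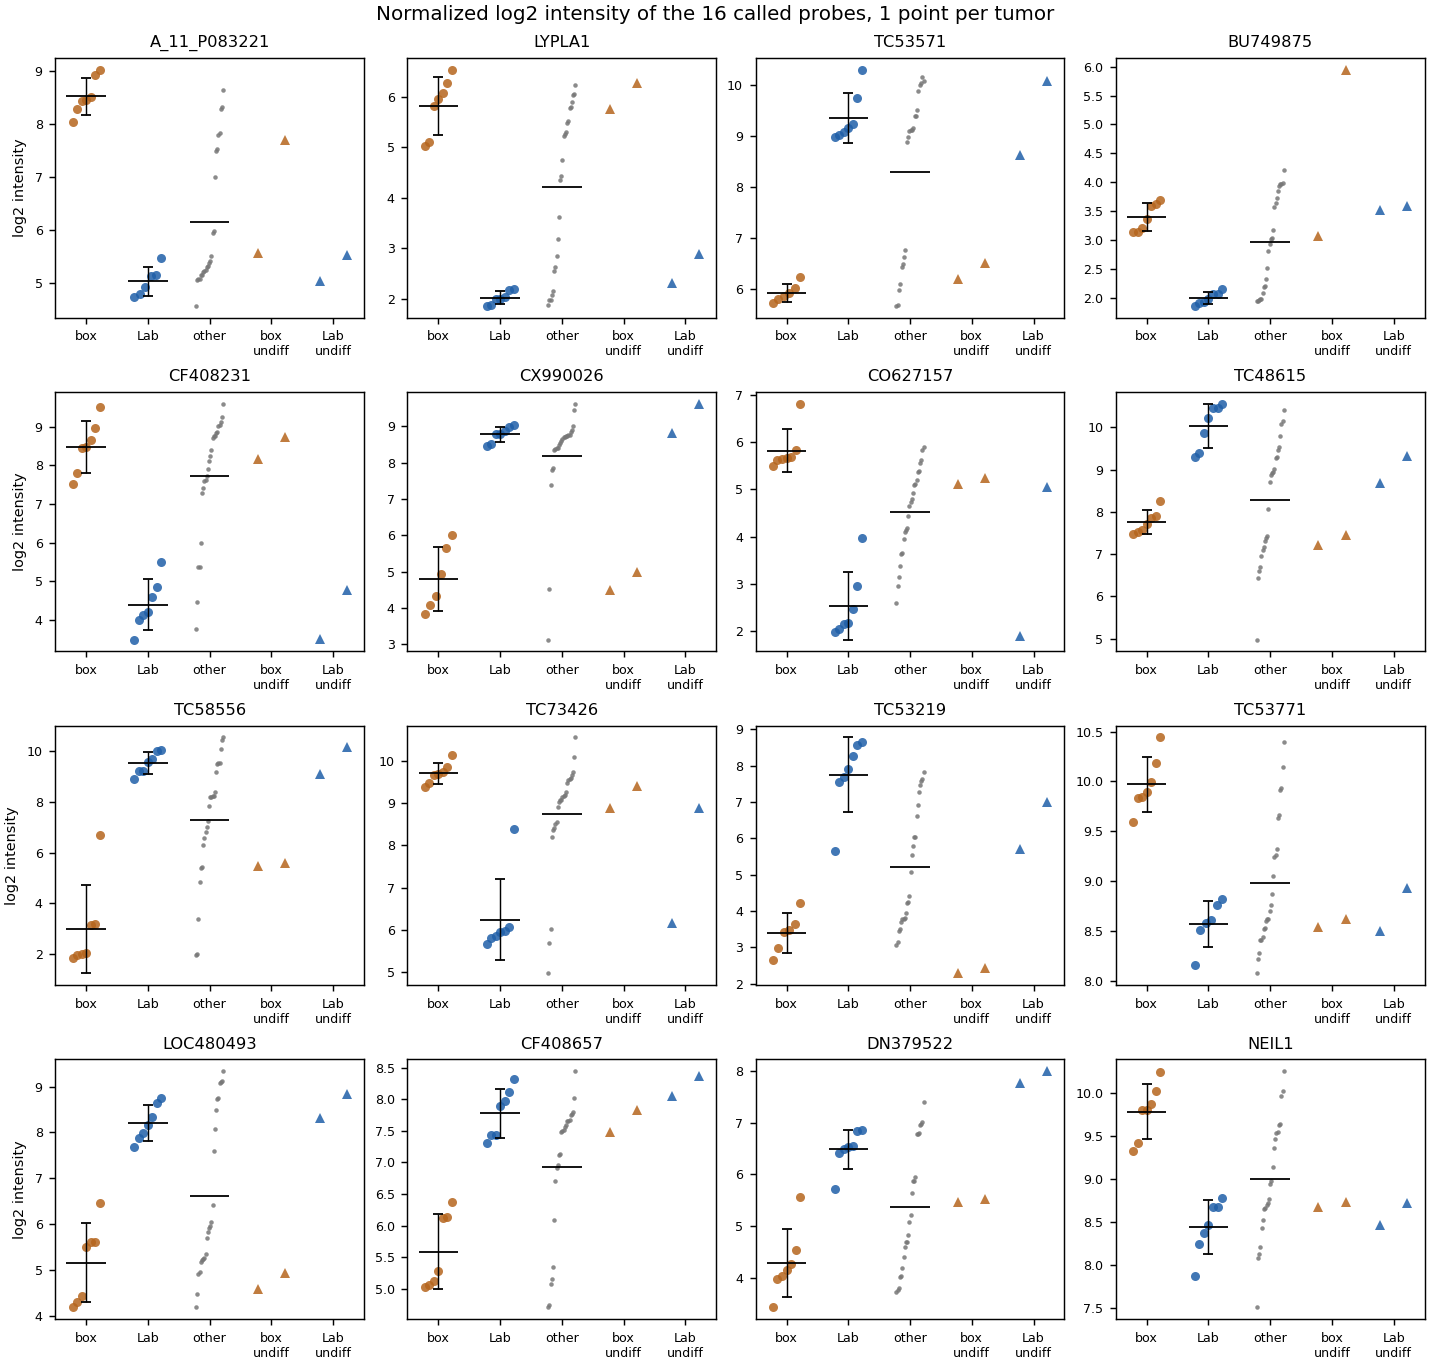
Each panel is 1 called probe and each point 1 tumor, on the normalized log2 intensity scale, for differentiated tumors of boxers (7), Labradors (7) and other breeds (24) and for the undifferentiated tumors of 2 boxers and 2 Labradors. Lines mark the means of the differentiated groups and bars the SD of boxers and Labradors, whose points do not overlap in any panel.

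A further 17 probes passed an adjusted p of 0.05 only, 7 of them with a gene symbol. With each pair sharing labels and slide averaged, only SLC35F3 and LOC607729 among them still passed (limma adjusted p = 0.0229 and p = 0.0237). MFN1, NUDT2, MTIF3, TMCO3, SNX22, LOC481790 and LOC607956 did not (limma adjusted p from 0.0782 to 0.235). Higher in boxers were MFN1, NUDT2, MTIF3, TMCO3 and SLC35F3. MFN1 encodes a GTPase that fuses the outer membranes of mitochondria, and it lay at 8.91, 9.22 and 9.50 in boxers and 7.79, 8.13 and 8.78 in Labradors (log2 fold change 1.03 ± 0.16, SE; limma adjusted p = 0.0352). NUDT2, the hydrolase of diadenosine tetraphosphate, lay at 11.31, 11.50 and 12.01 in boxers and 9.81, 10.27 and 11.22 in Labradors (1.20 ± 0.20, SE; limma adjusted p = 0.0485). MTIF3, an initiation factor of mitochondrial translation, differed by 0.99 ± 0.16 (SE; limma adjusted p = 0.0485). TMCO3 differed by 0.74 ± 0.12 (SE; limma adjusted p = 0.0499). SLC35F3 was not well above background on any of the 14 arrays, and no fold is given for it.

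SNX22, a sorting nexin, was lower in boxers and lay at 3.94, 4.20 and 5.25 in boxers and 5.29, 5.57 and 5.94 in Labradors (-1.21 ± 0.19, SE; limma adjusted p = 0.0315). LOC481790, annotated as similar to soluble adenylyl cyclase, was well above background on no boxer array and on all 7 Labrador arrays, so that Labradors were at least 3.50-fold higher (measured means 3.69 ± 0.78 and 5.84 ± 0.54, SD, n = 7 each; limma adjusted p = 0.0365). LOC607956, annotated as similar to vacuolar protein sorting 13D, differed by -1.30 ± 0.19 (SE; limma adjusted p = 0.0195). Further probes were TC74264 and DN744826, higher in boxers, and TC53706, TC59128, CN003358, LOC607729, A_11_P111581 and DN395014, lower in boxers, with absolute log2 differences from 0.78 to 2.40.

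Several probes of the same gene were available for 6 of the 33 probes, and they did not always show the same difference. The 3 probes of LOC481790 all had lower measured means in boxers, by -2.15, -1.78 and -1.88, where no boxer array was well above background for the first and second (limma adjusted p = 0.143 and p = 0.0939 for the latter pair). For MTIF3 the probe that passed was higher in boxers by 0.99, whereas the other probes were lower by -0.40 each (limma adjusted p = 0.607 and p = 0.537). For MFN1 the other probes differed by 0.28 and 0.40, less than the 1.03 of the probe that passed. The brighter probe of SLC35F3, well above background on all 14 arrays, differed by -0.10 ± 0.16 (SE).

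Within 25 kb of a called probe, 53 other probes around 11 of the 16 were tested, a window chosen after the data were seen. None of them passed an adjusted p of 0.05, and 7 (13.2%) had an unadjusted p under 0.05, beside 6.77% of all probes. The probe 0.361 kb from CX990026, TC69802, differed by -1.0 ± 0.19 (SE; limma adjusted p = 0.0929), in the direction of CX990026. The probes nearest that of NEIL1, TC63938 and LOC611618, were well above background on all arrays of both breeds. They differed by 0.13 ± 0.11 and 0.07 ± 0.18 (SE; limma adjusted p = 0.907 and p = 0.990), less than the 1.34 of the NEIL1 probe. Around TC73426, which was higher in boxers, 3 probes of MCCC2, a subunit of the mitochondrial enzyme methylcrotonyl-CoA carboxylase, had lower means in boxers, by -0.72, -0.64 and -0.34 (limma adjusted p from 0.241 to 0.745).

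**Figure D3:**
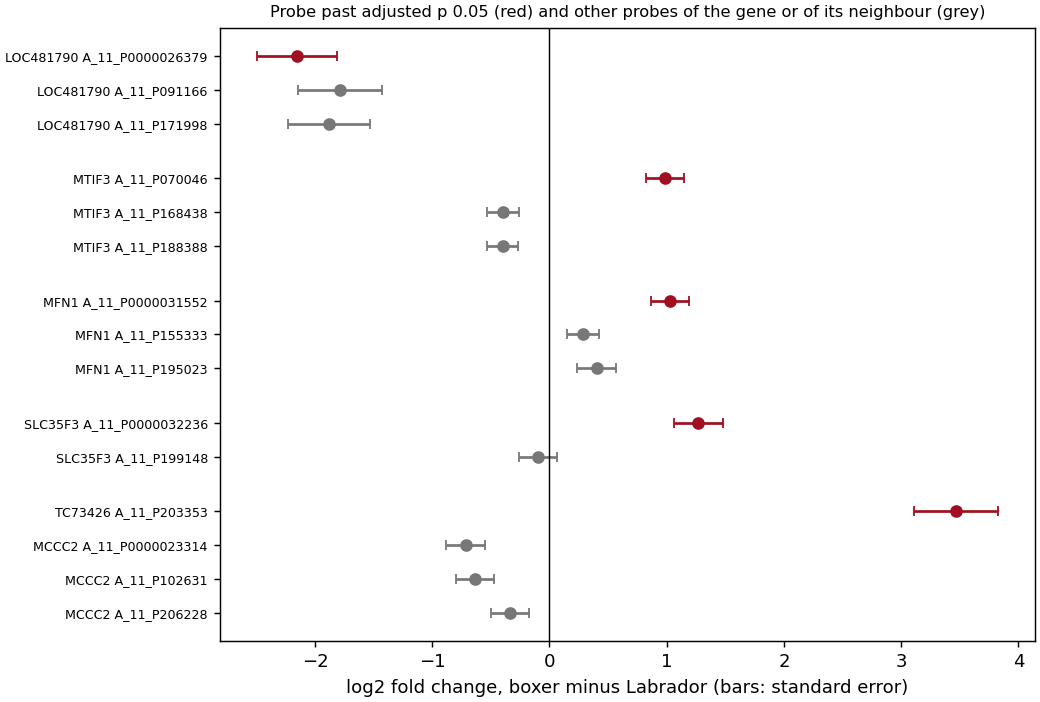
The x axis is the log2 fold change (boxer minus Labrador, bars are the SE) of probes grouped by gene, with the probe that passed an adjusted p of 0.05 in red and further probes in grey. The probes of LOC481790 lie on the same side of 0, those of MTIF3 lie on both sides, and the MCCC2 probes lie opposite to TC73426.

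The differentiated tumors of other breeds were used to see which of the 2 breeds lay apart. In 1 model with 3 breed groups, no probe was called between boxers and other breeds, 13 (0.0298%) passed an adjusted p of 0.05 and 2677 an unadjusted p under 0.05. Between Labradors and other breeds no probe was called either, 4 (0.00918%) passed an adjusted p of 0.05 and 2010 an unadjusted p under 0.05. These comparisons share the 24 tumors of other breeds. Among the 33 probes, those in which boxers differed from other breeds were A_11_P083221 (2.38, limma adjusted p = 0.0302), CX990026 (-3.39, limma adjusted p = 0.0115), MFN1 (0.93, limma adjusted p = 0.0302) and DN395014 (-1.21, limma adjusted p = 0.0276). Labradors differed from other breeds in CF408231 (-3.32, limma adjusted p = 0.0203) and CO627157 (-1.98, limma adjusted p = 0.0296). With the pairs sharing labels and slide averaged, CX990026 still passed (limma adjusted p = 0.0153), whereas A_11_P083221, MFN1, DN395014, CF408231 and CO627157 did not (limma adjusted p from 0.0946 to 0.174).

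Other breeds spread over the levels of both. For CX990026, 1 of the 24 lay within the boxer range and 13 within the Labrador range. For CF408231, 16 lay within the boxer range and 4 within the Labrador range. For LYPLA1, 11 lay within the boxer range, 5 within the Labrador range and 8 in neither. For TC53571, 2 of the 22 tumors with a usable spot lay within the boxer range and 12 within the Labrador range, and for LOC480493 the numbers were 14 and 3 of 24. Over the 16 called probes, the mean of other breeds lay closer to the boxers for 9 and closer to the Labradors for 7.

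The undifferentiated tumors of 2 boxers (T114 and T115) and 2 Labradors (T73 and T80), which had no part in the choice of probes, were compared in the same way. Both boxers were on the same slide and scanned in the same session, and both Labradors were on other slides scanned in another session. Breed and scan session cannot be told apart in these 4 arrays. The breed difference in these 4 had the same sign as in the differentiated tumors for 15 of the 16 called probes and for 29 of the 33, beside 48.8% of all probes. For 13 of the 16, both boxers lay beyond both Labradors in the same direction, beside 16.2% of the probes with a value in all 4. LYPLA1 was 6.28 and 5.76 in the boxers and 2.31 and 2.88 in the Labradors. CX990026 was 4.5 and 4.98 in the boxers and 9.63 and 8.81 in the Labradors. The exceptions were BU749875 (5.94 and 3.07 against 3.53 and 3.59), NEIL1 (8.67 and 8.73 against 8.46 and 8.72) and TC53771 (8.62 and 8.53 against 8.93 and 8.50). The breed by class interaction over 18 arrays passed an adjusted p of 0.05 for 20 probes (0.0462%) and had an unadjusted p under 0.05 for 3152, but with the arrays scaled to their 75th percentile only 1 passed. None of the 16 called probes passed it, and with 2 tumors a group this does not show that the classes are alike. Of the 33 probes, A_11_P111581 passed it, being lower in boxers by -2.40 among differentiated tumors and higher by 2.67 among undifferentiated ones (limma adjusted p = 0.023).

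Because slides and sessions were not balanced, the differences were computed within the batches that held both breeds. Since the ranges of the 16 called probes did not overlap, their sign within a batch was fixed, and only the sizes are given. TC48615 differed by -2.99 in the session with 3 boxers and 1 Labrador and by -2.36 in that with 1 boxer and 4 Labradors. NEIL1 differed by 0.97 and 1.45, and TC53571 by -4.41 and -3.26. With the session as a fixed block, 6 of the 16 called probes still passed an adjusted p of 0.05, namely TC58556, TC53571, TC48615, CO627157, LYPLA1 and A_11_P083221. With the slide as a random block all 16 passed it. With the slide as a fixed block the breed difference came only from the shared slide, T112 against T106 and T107. That fit rests on 1 boxer, so that only sizes are given. On this slide NEIL1 differed by 1.30 and TC48615 by -2.56.

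**Figure D4:**
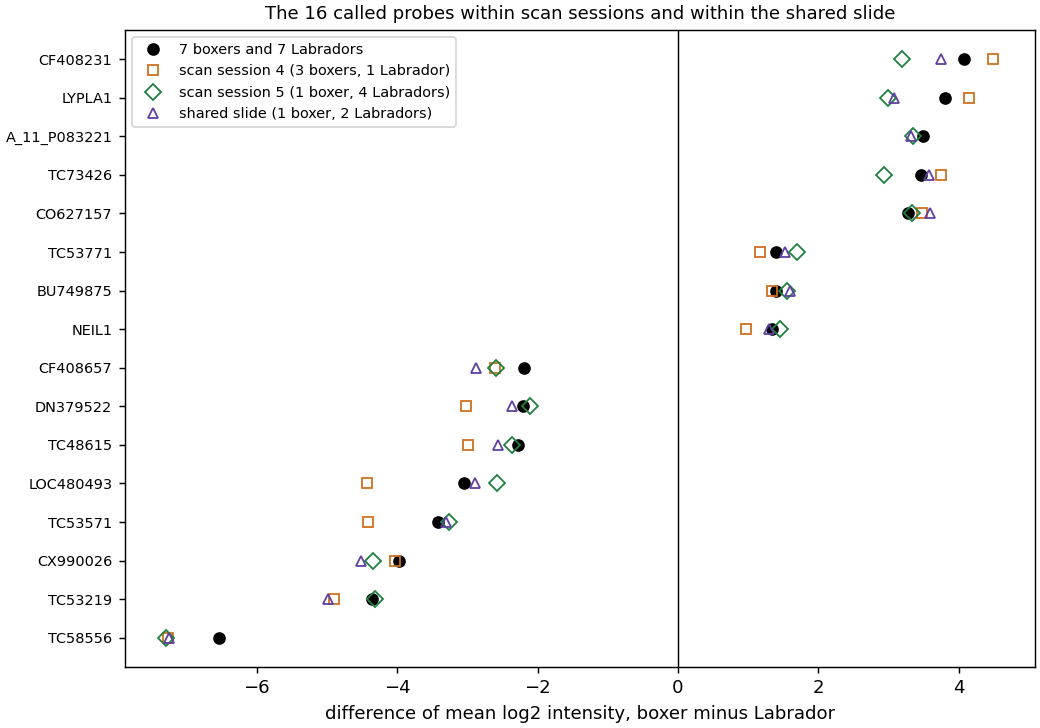
The x axis is the difference of mean log2 intensity, boxer minus Labrador, of each of the 16 called probes over the 14 tumors (black) and within the batches that held both breeds (open symbols, 1 to 4 tumors a breed). Open symbols lie on the side of the black ones because the ranges of the breeds do not overlap, and the spread of the symbols shows how the sizes vary, as for NEIL1 (0.97 and 1.45 in the sessions).

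The tumors sharing labels and slide were also the most alike within their breed. Across probes, T87 and T88 correlated at r = 0.988 beside 0.927 to 0.985 for the other 20 boxer pairs, and T106 and T107 at r = 0.982 beside 0.950 to 0.978 for the other 20 Labrador pairs. Their profiles were not identical, with median absolute log2 differences of 0.17 and 0.19. T84, a boxer of another age on the slide of T87 and T88, correlated with them at r = 0.979 and 0.985. Pairs of a boxer and a Labrador correlated at 0.933 to 0.985, so that whole profiles did not separate the breeds. The p-values above measure the spread between these tumors, which would be too small if 2 of them came from 1 dog.

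Gene lists of pathways and cell types were read through the brightest probe of each gene. Of 11677 genes, 6 (0.0514%) passed an adjusted p of 0.05, 949 (8.13%) had an unadjusted p under 0.05, 45.9% had a higher mean in boxers, and the median log2 difference was -0.02. No gene of any list passed an adjusted p of 0.05, and the smallest adjusted p was the 0.262 of ASIP. The values that follow are therefore descriptions, in which a difference in the number of cells of a type cannot be told apart from one in RNA per cell.

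Of 15 mast cell genes, 14 had lower means in boxers and the median was -0.34. CD63, a granule membrane protein, differed by -0.42 and MITF, a transcription factor of mast cells and melanocytes, by -0.53. KIT differed by -0.12 ± 0.30 (SE; limma adjusted p = 0.989). The log2 of the summed intensities of the list ranged from 18.21 to 19.25 in boxers and from 18.31 to 19.44 in Labradors. Missing spots were left out of this sum, among them those of the bright CMA1, usable in 4 boxers and 5 Labradors. Of 18 KIT signaling genes, 15 had lower means in boxers (median -0.21), with the kinase LYN at -0.37 and the phosphatase PTPN11 at 0.26. Of 16 eicosanoid genes, 11 had lower means (median -0.34), with the cyclooxygenase PTGS1 at -0.77 and the prostaglandin E synthase PTGES2 at 0.35.

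Of 10 MHC class II genes, all had lower means in boxers (median -0.38), with DLA-DMA at -0.67 and DLA-DQA1 at -0.67. DLA-DQB1 was -0.59 by its brightest probe and -2.15 averaged over its 4 probes, none of them past an adjusted p of 0.05. MHC class I and antigen processing showed a median of -0.20 over 13 genes, with PSMB9 at -0.51 and DLA-12 at -0.37. Among 20 T and NK cell genes, 17 had higher means in boxers (median 0.54) and 6 had an unadjusted p under 0.05, among them the interleukin 7 receptor IL7R at 1.28 ± 0.34 (SE) and CD3E of the T cell receptor complex at 0.76 ± 0.25 (SE). IL7R lay at 7.79 to 8.93 in boxers and 5.63 to 8.03 in Labradors. Of 11 B and plasma cell genes the median was -0.08, with 5 higher and 6 lower, BANK1 at -1.84, FCRL1 at -1.39 and SDC1 at 1.28. Macrophage genes (17) had a median of -0.12, with FCGR1A at -1.51 and CD68 at 0.37. Eosinophil genes (4) had a median of -0.22, with GATA1 at -0.62 and ALOX15 at 0.32. Neutrophil genes (9) had a median of -0.03, with 4 higher and 5 lower, CAMP at -0.39 and S100A9 at 1.30. CSF3R had usable spots in 2 boxers and 1 Labrador only. Interferon-stimulated genes (29) had a median of 0.03, with OASL at -0.53 and the chemokine CXCL10 at 2.02.

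All 11 keratinocyte and hair follicle genes had higher means in boxers, with a median of 2.06, the list farthest from the median of all genes. The levels of the breeds overlapped widely. The log2 of the summed intensities, with missing spots left out, ranged from 8.95 to 18.99 in boxers and from 8.03 to 17.63 in Labradors. CDH3, a cadherin of the hair follicle, differed by 0.87 ± 0.26 (SE) and TP63, a transcription factor of basal keratinocytes, by 1.33 ± 0.48 (SE), and neither was well above background on any Labrador array, so that these are differences of measured means. The part of skin in the tissue in the other results was not tested.

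Of 16 pigment cell genes, 10 had higher means in boxers (median 0.16). ASIP encodes the agouti signaling protein, which turns melanocytes from dark to yellow pigment and is a known coat color gene of dogs. It was 2.53, 5.68 and 6.82 in boxers and 1.83, 1.90 and 2.80 in Labradors. It was well above background on 4 boxer arrays and on no Labrador array, and the ranges overlapped. The measured means were 4.83 ± 1.80 and 2.08 ± 0.35 (SD, n = 7 each), and their difference did not pass the test (limma adjusted p = 0.262). With each Labrador array raised to its lowest signal well above background, the mean of the boxers was 1.72-fold higher. The undifferentiated tumors measured 5.77 and 7.09 in boxers and 2.0 and 2.94 in Labradors. With both classes in 1 fit the difference of measured means, 3.02, passed an adjusted p of 0.05 (limma adjusted p = 0.0434). That fit was 1 of only 2 among 36 alternative settings in which ASIP passed a limit of 0.05. The difference was 2.75 by the brightest probe and 1.51 averaged over the 3 ASIP probes, none of them past an adjusted p of 0.05 between differentiated tumors. MC1R, the receptor that ASIP blocks, differed by 0.48 in measured means and was well above background on only 3 boxer arrays and 1 Labrador array. The 15 genes known for breed traits had a median of -0.08.

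Of 33 proliferation genes, 29 had higher means in boxers (median 0.21), with AURKB, a mitotic kinase, at 0.47 and MCM7 of the replicative helicase at 0.34. The mean log2 level of the list ranged from 6.69 to 8.66 in boxers and from 6.99 to 8.52 in Labradors. Of 31 drug-metabolizing enzymes, 15 had higher and 16 lower means (median -0.0048), with the glutathione transferases GSTM3 at 1.02 and GSTA4 at -0.35. Fibroblast and collagen genes (22) had a median of -0.25, with THY1 at -0.35 and FBN1 at -0.52. Endothelial genes (15) had a median of 0.01, with FLT1 at 0.68 and CDH5 at 0.57, the latter well above background on only 2 boxer arrays and 1 Labrador array. Adipocyte genes (15) had a median of 0.03, with 8 higher and 7 lower, PPARG at -1.13, CFD at -0.85 and GPD1 at 0.71. Skeletal muscle genes (19) had a median of -0.47, with TCAP at -0.53 and TNNT1 at -0.57. Of the blood list 2 genes were measured, HBD at 0.26 and SLC4A1, which stayed near background on all 14 arrays.

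**Figure D5:**
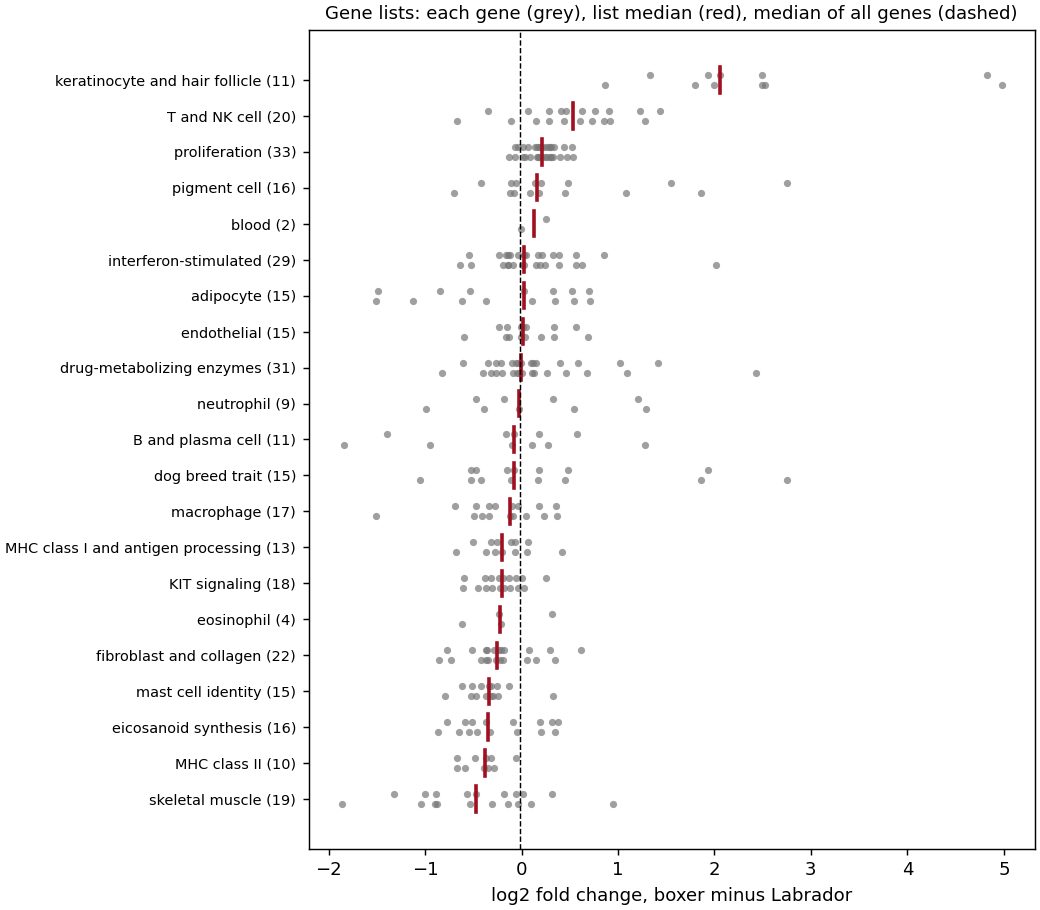
Each grey point is the log2 fold change (boxer minus Labrador) of 1 gene by its brightest probe, grouped by list with the number of genes measured, the red bar is the median of the list, and the dashed line the median of all genes (-0.02). The keratinocyte list has the highest median (2.06) and the skeletal muscle list the lowest (-0.47), and no single gene shown passed an adjusted p of 0.05.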

How the data were processed

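RNA from 51 mast cell tumors had been labeled with Cy3 and hybridized to Agilent Canine V2 4x44k arrays. The deposited intensity values came from Agilent Feature Extraction, and the authors' processed signal, background-subtracted and detrended, was used here. The members and gene lists were chosen with earlier results of these data known.

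Outlier spots were set to missing, log2 intensities of the 51 arrays were quantile-normalized, spots of 1 probe were averaged, and 43552 probes were tested with limma 3.58.1 in R 4.3.3, without covariates and with Benjamini-Hochberg adjustment. The authors' deposited normalized intensity table was an alternative. Calls needed a minimum fold of 2 with an adjusted p below 0.01. Where no array of a group was well above background, the Results give a bound, a difference of measured means named as such, or no fold. Bounds were computed from the lowest signal well above background on each array. The number of arrays limits the precision.

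Gene symbols came from accessions (1302 probes), gene identifiers (14361) or the file's own name (3555), and 24385 probes have none. The rule named up to 12 genes with a symbol and 3 probes without one in each direction. Other probes and genes were named after their values were seen. The window of 25 kb around probes, and the alternatives for other breeds and for the interaction, were also chosen after the data were seen. Alternatives covered normalization, background, dim probes, blocks for slide and scan session, covariates and left-out tumors. The fits were tested on simulated data. SAM, the authors' method, was not run. Counts cover all probes tested, and 1 item among them is not reported here.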

Additional observations from a re-analysis of the deposited data

Results flagged for a closer look

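Among the probes and genes named, 146 groups of 4 to 7 tumors were examined for a tumor far from the others of its breed, and 10 (6.85%) held one. About 1 in 20 groups would by chance. In boxers these were T12 for CO627157 (6.81), T130 for TC58556 (6.70) and T130 for CDH3 (3.10). In Labradors they were T102 for TC73426 (8.39) and for DN379522 (5.71), T101 for TC53219 (5.64), T91 for MC1R (2.02), T83 for GSTM3 (11.3), T58 for TP63 (2.76) and T106 for TCAP (11.7). All 5 called probes among them kept ranges that did not overlap between the breeds.

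The breed difference of A_11_P111581 depended on tumor class, by 5.07 on the log2 scale (undifferentiated minus differentiated, limma adjusted p = 0.023), with 2 undifferentiated tumors a breed.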

How the results depend on the processing

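Counts moved with the setting. Of 16 called probes there were 59 with the slide as a fixed block (1 shared with the 16), 5 with the scan session as a fixed block, 9 with each pair averaged, 8 with 49 arrays in 1 fit and 27 at an adjusted p under 0.05 with the fold. Without 1 tumor of each pair there were 9 (T87 and T106), 10 (T87 and T107), 9 (T88 and T106) and 9 (T88 and T107). Leaving out 1 tumor gave 13 to 25, the highest without T130. Of 33 probes past an adjusted p of 0.05 there were 231, 8, 18 and 14 under the first 4 of these settings, 19 with reference status as a covariate, and 14, 16, 16 and 21 without 1 tumor of each pair. Leaving out 1 tumor gave 18 to 47, with 18 without T47, T87 or T91, 20 without T106 and 21 without T84 or T102. The methods' t-test without adjustment gave 223 and 2692. Boxers against other breeds gave 6 with pairs averaged, Labradors against other breeds 0 with pairs averaged and 7 with the 75th percentile, and the interaction 1 with the 75th percentile. The cause was not tested.

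Genes of the lists, none past the threshold, changed sign. KIT was 0.030 without T87 and T107, 0.034 without T88 and T107, 0.0091 with pairs averaged, 0.017 from linear means and from -0.33 to 8.01e-05 (without T47) with 1 tumor left out. With the slide fixed, MITF was 0.19, DLA-12 0.081, THY1 0.056 and FBN1 0.13. THY1 was 0.18 with the session fixed and FBN1 0.094 in females. ALOX15 was -0.10 with age, -0.33 with reference status and from -0.027 (without T130) to 0.75 with 1 tumor left out. CSF3R was 0.063 with normexp, 0.55 with outlier spots kept and 0.54 in the authors' table. HBD was -0.21 (without T112) to 0.68, and -0.14 without T101. SLC4A1 was 0.0019 with reference status and from -0.0067 to 0.0024 (without T91) with 1 tumor left out. With normexp BU749875 was 0.16 (limma adjusted p = 0.272). No paired analysis was possible because the labels give no replicate numbers and the numbers used only name tumors.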
